A study of Homo sapiens with 6 samples.

Results

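The 32 mitosis genes described here encode the kinases, checkpoint proteins, kinetochore proteins, motors and ubiquitin ligase partners that carry a cell through mitosis. They were chosen by symbol as well-known mitotic regulators, and all 32 were found among the 59962 genes of the deposited table. RNA-seq was run on CFPAC-1, an established cell line derived from pancreatic ductal adenocarcinoma, with 6 libraries in 3 groups of 2. The groups were cells with SULF2 knocked down through sgRNA1, cells with SULF2 knocked down through sgRNA3, and control cells labelled as a knockdown of LACZ, a bacterial gene that human cells lack. The sources used here do not give how the guides act, whether a group is a clone or a pool, or whether its libraries are separate cultures, and p-values therefore cover library-to-library spread, which may be technical. SULF2 encodes an extracellular sulfatase that edits heparan sulfate chains and so alters how cells receive growth factor signals.

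Most mitotic transcripts are made in late S phase and G2 and peak as a cell enters mitosis. Their genes are held silent in resting cells by the DREAM complex and switched on in cycling cells when its core, MuvB, pairs with MYBL2 (B-MYB) and then FOXM1. In a culture of growing cells, the abundance of these transcripts is widely used as a sign of how many cells are cycling. In bulk RNA, fewer cells in G2 and mitosis and less of these transcripts per cell cannot be told apart.

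The promoters of these genes hold shared letters that the choice of genes did not use. Of the 32 genes, 26 matched an entry in the RefSeq promoter table (GRCh38.p14, 250 bases before to 50 after the annotated start), and all windows were searched on both strands. AURKA, TPX2, BIRC5, BUB3, TTK and UBE2C had no matching entry and were not searched. The letters CCAAT, the core of the NF-Y site, were found in 20 of the 26 genes (76.9%), against 39.7% of the 27305 genes in the table. At least 2 copies were found in 13 (50%), against 12.9%. The cell cycle homology region, the element through which MuvB contacts DNA, was searched as TTTGAA or TTCGAA and found in 18 of 26 (69.2%), against 19.5%. Both kinds of letters stood together in 15 genes (57.7%), against 7.8%. The letters GGCGG, searched anywhere in the window as the cell cycle dependent element, were found in all 26, against 61.5% of all genes. No distance to the cell cycle homology region was required, and genes were not matched for the base composition of their promoters. The 3 promoters below show different arrangements of these letters and belong to genes with the smallest p-value in their role group; capitals mark CCAAT and TTTGAA or TTCGAA on either strand, and each sequence reads 5′ to 3′ along its gene.
PRC1: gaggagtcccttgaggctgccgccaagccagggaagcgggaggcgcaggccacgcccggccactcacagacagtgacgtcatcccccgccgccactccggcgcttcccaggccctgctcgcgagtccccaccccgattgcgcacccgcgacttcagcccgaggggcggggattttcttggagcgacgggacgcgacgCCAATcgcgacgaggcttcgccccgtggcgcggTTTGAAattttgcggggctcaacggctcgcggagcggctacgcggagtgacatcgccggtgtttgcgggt
CCNB1: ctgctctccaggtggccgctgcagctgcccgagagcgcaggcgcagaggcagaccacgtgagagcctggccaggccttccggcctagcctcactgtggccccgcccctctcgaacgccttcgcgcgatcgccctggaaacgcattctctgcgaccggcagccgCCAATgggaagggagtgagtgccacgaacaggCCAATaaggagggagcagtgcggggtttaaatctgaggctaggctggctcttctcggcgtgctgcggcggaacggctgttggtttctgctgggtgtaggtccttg
NDC80: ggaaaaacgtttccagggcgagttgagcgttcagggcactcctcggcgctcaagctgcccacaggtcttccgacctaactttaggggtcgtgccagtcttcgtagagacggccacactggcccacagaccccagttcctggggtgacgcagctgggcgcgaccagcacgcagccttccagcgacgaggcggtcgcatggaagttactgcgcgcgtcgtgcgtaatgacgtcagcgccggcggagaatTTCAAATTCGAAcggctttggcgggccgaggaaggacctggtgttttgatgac
The PRC1 window (chr15:90994486-90994785, minus strand) holds a CCAAT that begins at -53 and a TTTGAA that begins at -20, counted from the annotated start. The CCNB1 window (chr5:69166900-69167199, plus strand) holds a pair of CCAAT copies, at -87 and -55, and neither TTTGAA nor TTCGAA. The NDC80 window (chr18:2571307-2571606, plus strand) holds no CCAAT, and a TTTGAA on the opposite strand at -3 adjoins a TTCGAA at +4. A match is a description of the sequence, and binding was not measured.

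Before the mitosis genes, the target and the identity of the cells were examined. SULF2 (ENSG00000196562) was at 8.98 and 12.81 TPM with sgRNA1, 10.07 and 9.24 with sgRNA3, and 25.69 and 22.52 in LACZ. TPM is transcript abundance per length, with an equal total for every library. SULF2 fell with both guides, by log2 changes of -1.09 with sgRNA1 (limma adjusted p = 0.0338, SE 0.18) and -1.23 with sgRNA3 (limma adjusted p = 0.0215, SE 0.18), and no guide library overlapped with LACZ. The sgRNA1 call ended with no filter, quantile normalization, no variance trend, a replicate block and only the groups compared (limma adjusted p = 0.0768, 0.053, 0.0675, 0.0819 and 0.0825). The sgRNA3 call ended with no filter, no variance trend and the block (limma adjusted p = 0.0528, 0.0511 and 0.0583). Leaving out any 1 of the 6 libraries ended the sgRNA1 call (limma adjusted p = 0.0544 to 0.172), and leaving out either sgRNA3 or either LACZ library ended the sgRNA3 call (0.1 to 0.117). Of 9 duct epithelial markers, 8 were expressed, among them KRT8 at 2215 to 2412 TPM and EPCAM at 338 to 389 TPM. The exception was CFTR, at 0.07 to 0.38 TPM. The summed level of the 9 was 8208 and 8026 TPM with sgRNA1, 8684 and 8638 with sgRNA3, and 9234 and 9061 in LACZ, and 4 of the 8 tested (KRT18, KRT19, SOX9 and CDH1) fell with sgRNA1 and 3 (KRT18, KRT19 and SOX9) with sgRNA3, where 4.31% and 5.25% of the 16610 genes tested fell. Leaving out sgRNA1 replicate 2 ended the KRT18 call with sgRNA1 (limma adjusted p = 0.0518). Leaving out either library of the guide or either LACZ library ended each of the other 6 calls, and leaving out any 1 of the 6 libraries ended those of SOX9 and CDH1 (0.0502 to 0.131 over these 6 calls). Median-of-ratios scaling ended the calls of KRT19 with sgRNA1 and of KRT18 and KRT19 with sgRNA3 (limma adjusted p = 0.0586, 0.0583 and 0.112). Every one of these duct marker calls ended with no variance trend (limma adjusted p = 0.0614 to 0.247). Some also ended with no filter, the replicate block or only the groups compared. Of 11 markers of leukocytes, fibroblasts, endothelium, acinar and endocrine cells, 7 stayed below 1 TPM in every library, and INS and GCG were listed at 0. Their summed level was 63.3 and 62.6 TPM with sgRNA1, 44.9 and 40.7 with sgRNA3, and 81.3 and 80.35 in LACZ, most of it COL1A1, a collagen chain, which fell with both guides (log2 changes -0.39 and -0.99, limma adjusted p = 0.0403 and 0.00361). For COL1A1 the call with sgRNA1 was lost on leaving out any 1 of the 6 libraries (0.0627 to 0.179), under median-of-ratios scaling and quantile normalization (0.0621 and 0.0552), and with no filter or the replicate block (0.0679 and 0.0747). Any part of these marker levels in the results below was not tested. Between 15563 and 15923 genes per library reached 1 TPM, and the depth of the libraries is unknown.

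All 32 mitosis genes were expressed and passed the filter of at least 1 TPM in at least 2 libraries. Their mean over the 6 libraries ran from 21.8 TPM for TTK to 297 TPM for UBE2C, a 13.6-fold range. Together they held 3658 and 3601 TPM with sgRNA1, 3382 and 3416 with sgRNA3, and 3580 and 3516 in LACZ. The sums with sgRNA1 lay above, and those with sgRNA3 below, both LACZ sums. They are sums of TPM as deposited, and no other scaling was applied to them. The mean sum was 3630 ± 40.1 TPM (SD, n = 2) with sgRNA1, or 102% of LACZ, 3399 ± 24.1 with sgRNA3, or 95.8% of LACZ, and 3548 ± 45.2 in LACZ. For each gene, the highest of the 6 libraries was 1.05 to 1.44 times the lowest, with a median of 1.19. The median absolute log2 difference between replicates of a mitosis gene was 0.0635 with sgRNA1, 0.0712 with sgRNA3 and 0.0612 in LACZ, against 0.0947, 0.0766 and 0.0819 over the 6162 genes whose mean level was at least that of TTK, the lowest of the 32.

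**Figure D1:**
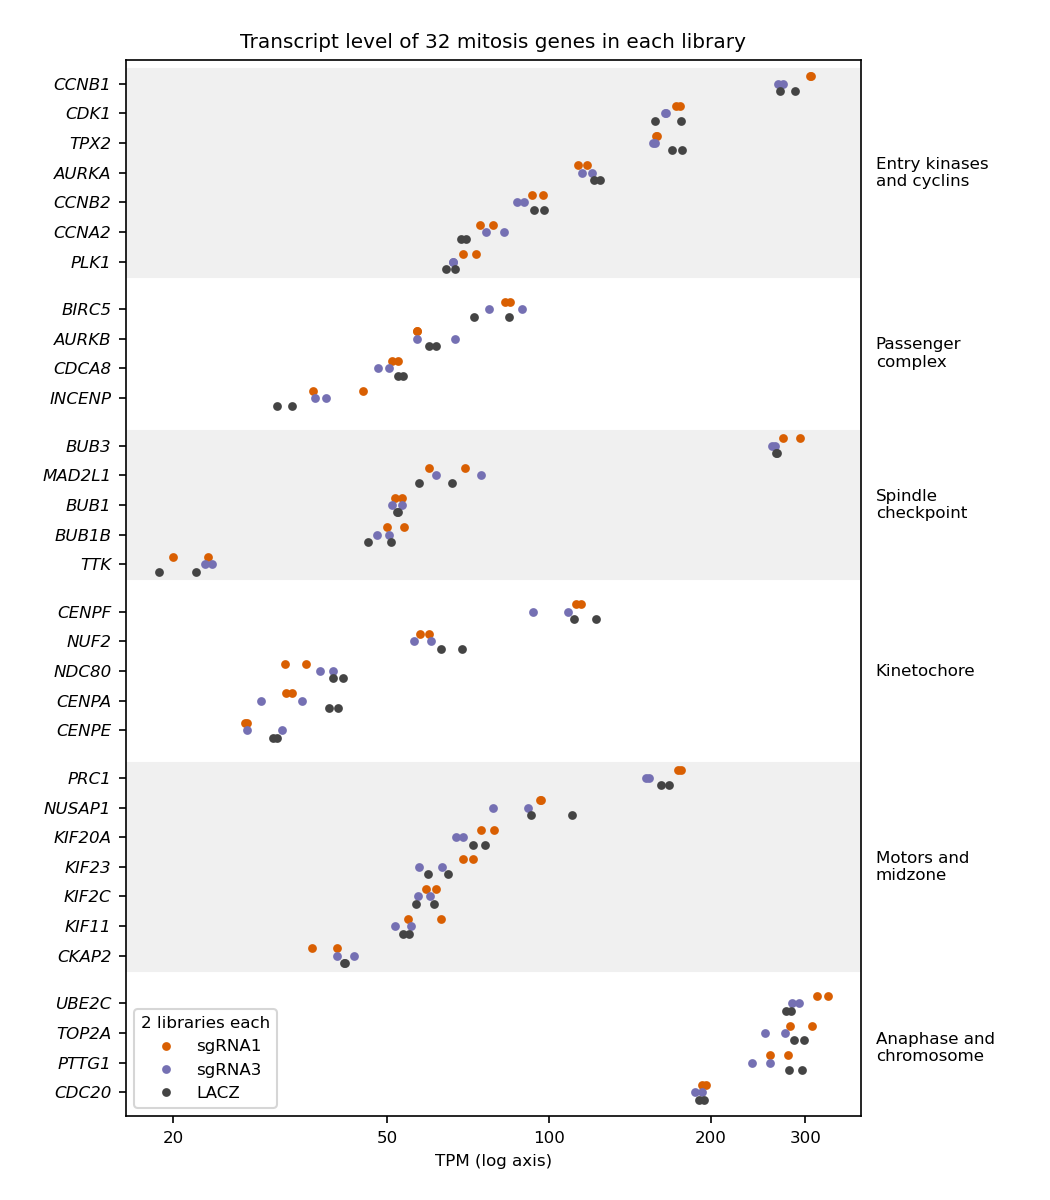
Transcript level of each mitosis gene in TPM (log axis), grouped by role, with 2 points per group: sgRNA1 uppermost, sgRNA3 in the middle, LACZ lowest in each row. Genes run from about 20 to over 300 TPM, and for every gene the 6 points lie within a factor of 1.44.

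Few mitosis genes passed the test with either guide, and few of all genes did. Of the 32, 1 rose and 0 fell with sgRNA1, where 1.69% of the 16610 genes tested rose and 4.31% fell. With sgRNA3, 0 rose and 0 fell, where 3.84% of all genes rose and 5.25% fell. Of the 6162 genes whose mean was at least that of TTK, 11.4% passed with sgRNA1 and 16.6% with sgRNA3. The difference between these shares and that of the mitosis genes was not tested. None passed with both guides in the same direction, against 1.15% of all genes higher and 2.90% lower. The gene that passed was UBE2C. At an unadjusted limma p under 0.05 there were 6 of 32 with sgRNA1 (18.8%, 3 higher and 3 lower) and 6 with sgRNA3 (18.8%, 1 higher and 5 lower), against 24.6% and 28% of all genes. The split of calls over all genes depended on scaling: 28.2% of calls were higher with sgRNA1 and 42.2% with sgRNA3, against 51.3% and 55.9% when libraries were scaled by the median of ratios, and 44.1% and 49% after quantile normalization.

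The changes of the mitosis genes were small in size. On the log2(TPM + 1) scale they ran from -0.27 to 0.32 with sgRNA1, with a median of 0.03, and from -0.31 to 0.21 with sgRNA3, with a median of -0.03. The medians over all genes tested were -0.07 and -0.05. Under median-of-ratios scaling the medians of the mitosis genes were 0.11 with sgRNA1 and 0.02 with sgRNA3. The direction of the median with sgRNA3 thus flips with that scaling, while quantile normalization gave -0.04. The median absolute change was 0.09 with sgRNA1 and 0.08 with sgRNA3, against 0.21 and 0.23 over all genes, and 0.15 and 0.17 over the 6162 genes whose mean was at least that of TTK. A p that misses the threshold does not show that levels were alike, so the intervals are given too. All 32 unadjusted 95% limma intervals lay within a 2-fold change in either direction with each guide. Within a 1.5-fold change lay 31 of 32 with sgRNA1 and 32 of 32 with sgRNA3, the exception being INCENP, whose interval with sgRNA1 reached 0.61. Standard errors ran from 0.04 to 0.13. All intervals given here come from the fit with a variance trend and TPM as deposited. They were not recomputed under the other settings.

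**Figure D2:**
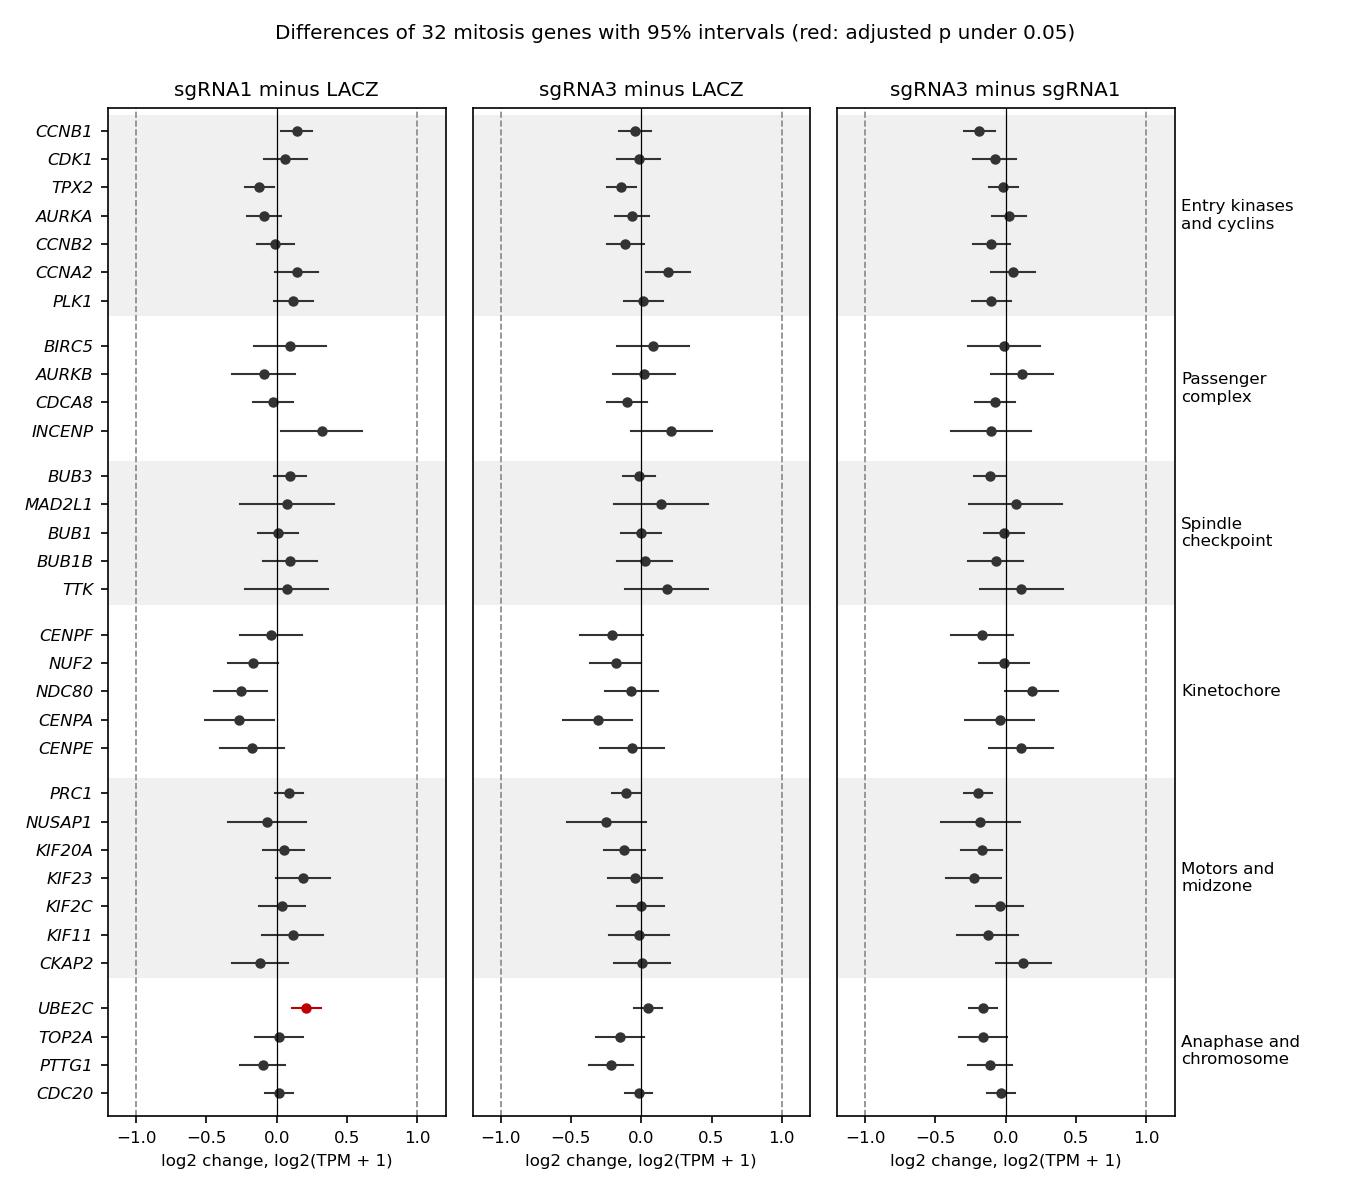
Log2 change of each mitosis gene on the log2(TPM + 1) scale (points) with its unadjusted 95% limma interval (lines), for sgRNA1 minus LACZ, sgRNA3 minus LACZ and sgRNA3 minus sgRNA1; red marks an adjusted p under 0.05 and dashed lines a 2-fold change. UBE2C with sgRNA1 is the only red point, and no interval reaches a dashed line.

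Kinases and cyclins of mitotic entry come first in the sequence of events. CDK1, the kinase that triggers mitosis, was at 172.52 and 175.61 TPM with sgRNA1, 165.28 and 164.32 with sgRNA3, and 176.24 and 157.93 in LACZ, so both guides lay within the LACZ range. CCNB1 (ENSG00000134057, chromosome 5), the B cyclin that activates CDK1, was the second most abundant mitosis gene. It stood at 306.50 and 307.31 TPM with sgRNA1, 266.59 and 272.28 with sgRNA3, and 287.43 and 268.77 in LACZ. The sgRNA1 libraries lay above all others, while those of sgRNA3 and LACZ overlapped. Against LACZ, CCNB1 had a log2 change of 0.14 with sgRNA1 (limma adjusted p = 0.127, SE 0.04) and of -0.04 with sgRNA3 (limma adjusted p = 0.564, SE 0.04). CCNB2, the other B cyclin, averaged 95.25 ± 2.998, 88.57 ± 1.93 and 95.85 ± 3.132 TPM (SD, n = 2) with sgRNA1, sgRNA3 and LACZ.

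Other members of this group lay on either side of LACZ, and none passed. CCNA2, cyclin A2, which acts in S phase and G2, averaged 76.6 TPM with sgRNA1, 79.3 with sgRNA3 and 69.3 in LACZ, with all 4 SULF2 guide libraries above both LACZ libraries (log2 changes 0.14 and 0.19, limma adjusted p = 0.241 and 0.120). TPX2, which activates the kinase AURKA on spindle microtubules, ran the other way, at 159 TPM with sgRNA1, 157 with sgRNA3 and 173 in LACZ (log2 changes -0.12 and -0.14, limma adjusted p = 0.145 and 0.0952). AURKA itself averaged 116 TPM with sgRNA1, 118 with sgRNA3 and 123 in LACZ. PLK1, the polo kinase of centrosomes and kinetochores, averaged 71.2, 66.2 and 65.5 TPM with sgRNA1, sgRNA3 and LACZ. Across the 7 genes of this group the median log2 change was 0.06 with sgRNA1 and -0.04 with sgRNA3.

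The chromosomal passenger complex corrects faulty attachments of chromosomes and later guides cytokinesis. BIRC5 (survivin), its most abundant subunit here, was at 84.79 and 82.82 TPM with sgRNA1, 89.25 and 77.33 with sgRNA3, and 84.47 and 72.54 in LACZ, so the 3 groups overlapped. INCENP (ENSG00000149503, chromosome 11), the scaffold that binds the kinase AURKB, was at 45.01 and 36.35 TPM with sgRNA1, 36.66 and 38.43 with sgRNA3, and 33.21 and 31.24 in LACZ. All 4 guide libraries lay above both LACZ libraries, and the sgRNA1 replicates were farther apart than the means of sgRNA1 and LACZ. The log2 change of INCENP, the highest value of the 32 genes with each guide, was 0.32 with sgRNA1 (limma adjusted p = 0.166, SE 0.11) and 0.21 with sgRNA3 (limma adjusted p = 0.291, SE 0.11). The kinase AURKB averaged 56.9 ± 0.0141 TPM (SD, n = 2) with sgRNA1, 61.9 ± 7.25 with sgRNA3 and 60.8 ± 1.27 in LACZ. CDCA8 (borealin) averaged 51.8, 49.2 and 52.9 TPM with sgRNA1, sgRNA3 and LACZ.

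Spindle checkpoint genes, whose proteins hold back anaphase until every chromosome is attached, had log2 changes from 0.01 to 0.10 with sgRNA1, the narrowest range of the 6 role groups, and none passed. BUB3 (ENSG00000154473, chromosome 10), the most abundant of them, was at 293.10 and 272.92 TPM with sgRNA1, 263.46 and 260.02 with sgRNA3, and 265.50 and 264.49 in LACZ. Its sgRNA1 libraries were the highest and its sgRNA3 libraries the lowest, with log2 changes of 0.09 (limma adjusted p = 0.279, SE 0.05) and -0.02 (limma adjusted p = 0.837, SE 0.05). Under median-of-ratios scaling the sgRNA1 change of BUB3 became 0.18 and passed (limma adjusted p = 0.0461). The kinase BUB1 lay between 50.98 and 53.35 TPM in all 6 libraries and had the smallest change of all with either guide (log2 changes 0.01 and -0.003). BUB1B, which helps inhibit CDC20, averaged 51.8, 49.2 and 48.5 TPM with sgRNA1, sgRNA3 and LACZ. MAD2L1, which is loaded onto CDC20, averaged 64.8 ± 6.92, 68.2 ± 9.24 and 61.6 ± 6.18 TPM (SD, n = 2) with sgRNA1, sgRNA3 and LACZ. TTK, the MPS1 kinase that starts checkpoint signalling, was the least abundant mitosis gene, at 19.93 and 23.18 TPM with sgRNA1, 22.93 and 23.63 with sgRNA3, and 22.08 and 18.84 in LACZ.

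At the kinetochore, where chromosomes meet spindle microtubules, the means of all 5 genes were below LACZ with each guide, except that under median-of-ratios scaling CENPF was above it with sgRNA1 (log2 change 0.04), and none passed. Leaving out LACZ replicate 2 also turned CENPF with sgRNA1 (0.02), and leaving out sgRNA3 replicate 1 turned CENPE with sgRNA3 (0.04). The log2 changes ran from -0.27 to -0.04 with sgRNA1 (median -0.17) and from -0.31 to -0.06 with sgRNA3 (median -0.18). The comparisons share the LACZ libraries. The medians over 31 other kinetochore genes were -0.004 with sgRNA1 and 0.02 with sgRNA3, and over all genes tested -0.07 and -0.05. NDC80 (ENSG00000080986, chromosome 18), which grips microtubules, was at 32.29 and 35.30 TPM with sgRNA1, 37.43 and 39.59 with sgRNA3, and 39.70 and 41.31 in LACZ. The guide libraries all lay below LACZ, with sgRNA1 the lowest. Against LACZ, NDC80 had a log2 change of -0.26 with sgRNA1 (limma adjusted p = 0.114, SE 0.07) and of -0.07 with sgRNA3 (limma adjusted p = 0.586, SE 0.07). NUF2, the partner of NDC80, averaged 58.7 and 58.2 TPM with sgRNA1 and sgRNA3, against 66.1 in LACZ (log2 changes -0.17 and -0.18, limma adjusted p = 0.229 and 0.177). CENPA, the histone H3 variant that marks the centromere, was at 33.19 and 32.48 TPM with sgRNA1, 34.78 and 29.17 with sgRNA3, and 38.99 and 40.50 in LACZ. No guide library reached LACZ, and the log2 changes were -0.27 and -0.31 (SE 0.10, limma adjusted p = 0.173 and 0.112), the lowest of the 32 genes with each guide. CENPF, a large protein of the outer kinetochore and the most abundant of these genes, was at 114.89 and 112.15 TPM with sgRNA1, 93.50 and 108.74 with sgRNA3, and 111.59 and 122.40 in LACZ. The sgRNA1 libraries lay inside the LACZ range and the sgRNA3 libraries below it (log2 changes -0.04 and -0.21, limma adjusted p = 0.817 and 0.195). CENPE, a kinesin that moves chromosomes to the spindle equator, averaged 27.4, 29.7 and 31.0 TPM with sgRNA1, sgRNA3 and LACZ.

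None of 7 genes for motors and spindle midzone proteins passed, and their median log2 change was 0.05 with sgRNA1, -0.04 with sgRNA3 and -0.17 for sgRNA3 against sgRNA1. PRC1 (ENSG00000198901, chromosome 15), which bundles microtubules in the midzone, was at 173.89 and 176.22 TPM with sgRNA1, 153.53 and 151.50 with sgRNA3, and 162.03 and 167.54 in LACZ. LACZ lay between the guides with no overlap, and the log2 changes were 0.09 with sgRNA1 (limma adjusted p = 0.259, SE 0.04) and -0.11 with sgRNA3 (limma adjusted p = 0.149, SE 0.04). KIF23, the motor of the centralspindlin complex, averaged 70.8 ± 2.25 TPM (SD, n = 2) with sgRNA1, 60.3 ± 4.29 with sgRNA3 and 62.2 ± 3.62 in LACZ. KIF20A, which carries the passenger complex to the midzone, averaged 76.9, 68.2 and 74.2 TPM with sgRNA1, sgRNA3 and LACZ. KIF11, the motor that pushes spindle poles apart, averaged 58.8, 53.6 and 54.2 TPM, and KIF2C, which takes microtubules apart at their ends, 60.4, 58.6 and 58.9 TPM, in the same order. NUSAP1, which stabilizes spindle microtubules, spread widely in LACZ (110.36 and 92.45 TPM) and averaged 96.3 TPM with sgRNA1 and 85.1 with sgRNA3. CKAP2, a spindle protein, averaged 38.3 TPM with sgRNA1, 41.8 with sgRNA3 and 41.7 in LACZ.

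Anaphase begins when the ubiquitin ligase APC/C, with its activator CDC20 and its ubiquitin donor UBE2C, destroys securin. UBE2C (ENSG00000175063, chromosome 20, 45812576 to 45816957) was the most abundant mitosis gene, at 316.01 and 330.28 TPM with sgRNA1, 284.08 and 292.71 with sgRNA3, and 276.29 and 281.97 in LACZ. All 4 guide libraries lay above both LACZ libraries, those of sgRNA1 farthest. Its mean was 323 ± 10.1 TPM (SD, n = 2) with sgRNA1, 288 ± 6.10 with sgRNA3 and 279 ± 4.02 in LACZ. UBE2C rose with sgRNA1, to 116% of LACZ (log2 change 0.21, SE 0.04, limma adjusted p = 0.0476), and with sgRNA3 its log2 change was 0.05 (limma adjusted p = 0.504, SE 0.04). The call stood close to the threshold and was lost when any 1 of the 6 libraries was left out: without sgRNA1 replicate 1 or 2 (limma adjusted p = 0.0901 and 0.157), sgRNA3 replicate 1 or 2 (0.1 for each), or LACZ replicate 1 or 2 (0.192 and 0.149). The call also ended with every gene kept, after quantile normalization, without a variance trend, with a replicate block and with only the groups compared (0.0857, 0.0516, 0.186, 0.0790 and 0.0998).

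CDC20 itself lay between 187.31 and 196.16 TPM in all 6 libraries, a ratio of 1.05, with log2 changes of 0.02 and -0.02. PTTG1, which is securin, averaged 268 ± 14.8 TPM (SD, n = 2) with sgRNA1, 248 ± 13.6 with sgRNA3 and 288 ± 10.7 in LACZ, and its 4 guide libraries lay below LACZ (log2 changes -0.10 and -0.21, limma adjusted p = 0.389 and 0.0967). TOP2A, the topoisomerase that untangles sister chromosomes, was at 309.54 and 281.70 TPM with sgRNA1, 252.14 and 275.44 with sgRNA3, and 298.72 and 286.25 in LACZ. Copies of mitosis genes, 13 paralogs and pseudogenes, were found by symbol alone, and their sequences were not compared. They reached at most 0.83 TPM, and 8 of them, PTTG2 and PTTG3P included, were listed at 0 in every library. The sources used here do not state how reads shared with such copies were assigned.

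**Figure D3:**
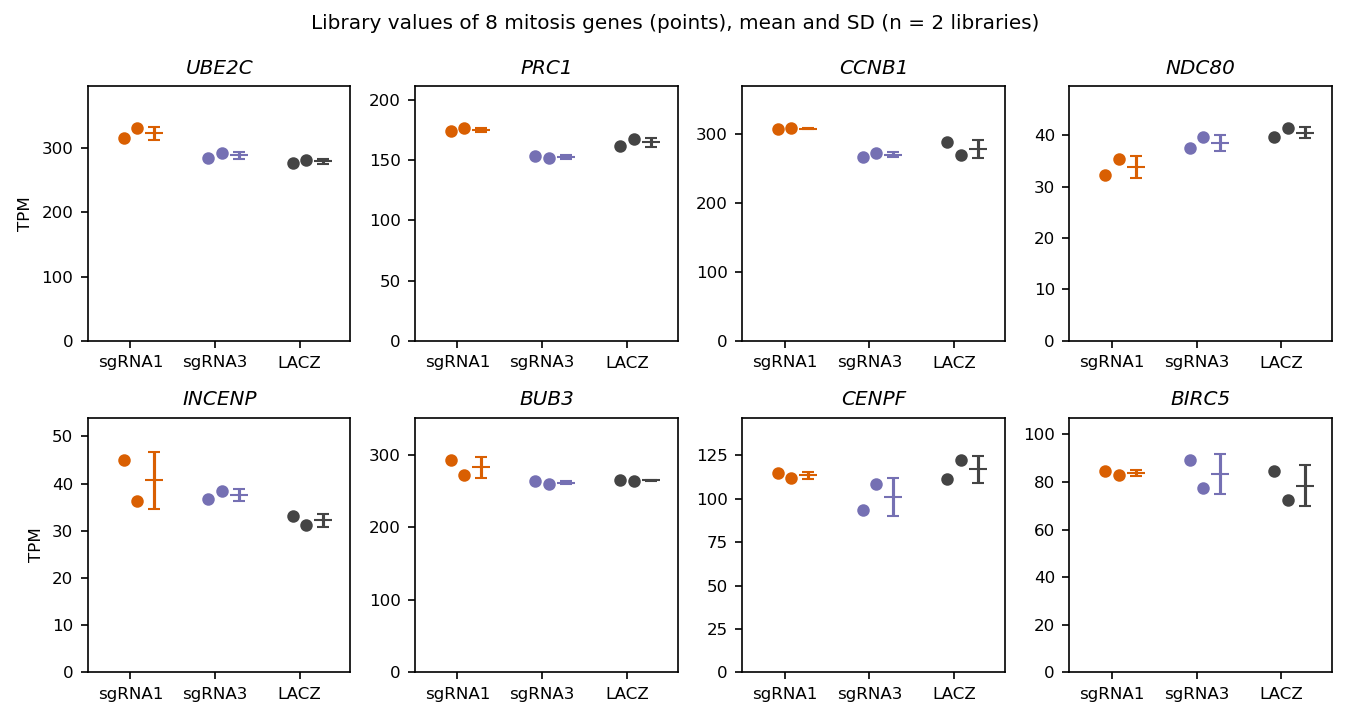
TPM of 8 mitosis genes in each library (points) with the mean and SD of each group (n = 2 libraries), every axis starting at 0. UBE2C, PRC1 and CCNB1 are highest with sgRNA1, NDC80 is lowest there, and INCENP is lowest in LACZ; UBE2C with sgRNA1 is the only difference from LACZ among them that passed.

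Separation of the libraries was no more frequent among the mitosis genes than among all genes. All 4 SULF2 guide libraries lay above both LACZ libraries for 3 of 32 genes (9.38%: CCNA2, INCENP and UBE2C), against 13.2% of all genes tested. All 4 lay below for 6 of 32 (18.8%: AURKA, TPX2, CENPA, NDC80, NUF2 and PTTG1), against 23.4%. With the mean of both guides set against LACZ, 0 of 32 were higher and 0 lower in limma, 7 (21.9%) had an unadjusted p under 0.05, against 29% of all genes, and the smallest adjusted p was 0.0749, for TPX2 (log2 change -0.13). Of all genes, 10.9% passed.

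Between the guides, sgRNA3 against sgRNA1, 0 of 32 mitosis genes were higher and 0 lower, against 0.391% and 0.187% of all genes tested. At an unadjusted limma p under 0.05 there were 5 of 32 (15.6%), all lower with sgRNA3, against 15.4% of all genes. They were PRC1 (log2 change -0.20, SE 0.04, limma adjusted p = 0.130), CCNB1 (-0.19, adjusted p = 0.166), UBE2C (-0.16, adjusted p = 0.175), KIF23 (-0.23, adjusted p = 0.264) and KIF20A (-0.17, adjusted p = 0.271). In all, 24 of 32 genes had lower values with sgRNA3, with a median log2 change of -0.07, while the median over all genes was 0.04. For all 32 the 95% interval of this difference lay within 1.5-fold.

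Further genes of mitosis and its control, 127 in 6 lists, were set beside the 32, and all 127 were tested. With sgRNA1, 3 were higher and 1 lower (3.15% in all), with a median log2 change of -0.004, and with sgRNA3, 4 were higher and 3 lower (5.51%), with a median of -0.01. Over all genes tested with sgRNA1, 1.69% rose and 4.31% fell, and over those with sgRNA3, 3.84% rose and 5.25% fell. Under median-of-ratios scaling 12 rose and 1 fell with sgRNA1, while 14 rose and 3 fell with sgRNA3, and the medians turned positive, 0.08 and 0.04. None of 19 condensin and cohesin genes, which fold and join chromosomes, and none of 26 spindle and cytokinesis genes passed with either guide in limma. At an unadjusted p under 0.05 there were 2 of the 19 with each guide, and 10 of the 26 with sgRNA1 and 8 with sgRNA3, where 24.6% of all genes reached it with sgRNA1 and 28% with sgRNA3.

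Members of the 6 lists that passed were spread over several roles. For sgRNA3 against sgRNA1, 0 of the 127 were higher and 0 lower, against 0.391% and 0.187% of all genes tested. Of 20 genes of the APC/C and separase, the subunit ANAPC7 rose with both guides (log2 changes 0.33 and 0.45, limma adjusted p = 0.0415 and 0.0174), CDC26 with sgRNA1 (0.62) and ANAPC4 with sgRNA3 (0.58). With the other guide the log2 change was 0.36 for CDC26 and 0.24 for ANAPC4 (limma adjusted p = 0.102 and 0.181). Of 13 genes that control CDK1 through phosphate groups and related kinases, CDC25A, the phosphatase that activates CDKs at S phase entry, rose with sgRNA3. It was at 16.52 and 12.97 TPM with sgRNA3 and 6.80 and 6.54 in LACZ (log2 change 1.03, SE 0.16, limma adjusted p = 0.0235). The sgRNA1 libraries of CDC25A, at 11.76 and 9.96 TPM, also lay above LACZ (log2 change 0.62, limma adjusted p = 0.0827). For sgRNA3 against sgRNA1 its limma adjusted p was 0.316. CDC25C, which activates CDK1 at mitosis, fell with sgRNA3, at 14.36 and 16.60 TPM, against 24.99 and 23.26 in LACZ (log2 change -0.61, SE 0.10, limma adjusted p = 0.0309), and so did the centrosome kinase NEK2 (-0.40, adjusted p = 0.0328). With sgRNA1 the log2 changes of CDC25C and NEK2 were -0.38 and -0.21 (limma adjusted p = 0.102 and 0.147). Of 18 regulators of mitotic transcription, the MuvB subunit LIN37 fell (-0.64) and the E2F partner TFDP1 rose (0.33) with sgRNA3, and the CDK inhibitor CDKN1A fell with sgRNA1 (-0.64, adjusted p = 0.0265). With the other guide the log2 changes were -0.24 for LIN37, 0.23 for TFDP1 and -0.01 for CDKN1A (limma adjusted p = 0.22, 0.108 and 0.963). MYBL2, the partner of MuvB, did not pass (log2 changes 0.21 and 0.20, limma adjusted p = 0.0683 and 0.0602). Of 31 other kinetochore genes, SPC25, a subunit of the NDC80 complex, rose with sgRNA1 (0.68, SE 0.09, limma adjusted p = 0.0187), in the direction opposite to the value of NDC80. With sgRNA3 the log2 change of SPC25 was 0.41 (limma adjusted p = 0.0502).

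Each of these 11 calls was lost without either library of the guide concerned and without either LACZ library. The calls of ANAPC7 and CDC26 with sgRNA1, of CDKN1A with sgRNA1, and of CDC25C, NEK2, LIN37 and TFDP1 with sgRNA3 were lost without any 1 of the 6 libraries. Over all 11, limma adjusted p was 0.0502 to 0.168 where a call was lost in this way.

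Replication genes, which act in S phase and precede mitosis in the cell cycle, were set beside the mitosis genes. Of 40 tested, 10 rose and 0 fell with sgRNA1 (25%), with a median log2 change of 0.19, and 17 rose and 0 fell with sgRNA3 (42.5%), with a median of 0.28, where 1.69% of all genes rose with sgRNA1 and 3.84% with sgRNA3. The counts depended on the settings: 16 and 21 rose under median-of-ratios scaling, 1 and 7 with no trend, and 3 and 13 with only the groups compared. Leaving out sgRNA1 replicate 1 or 2, or LACZ replicate 1 or 2, gave 2, 1, 1 and 1 higher with sgRNA1, in place of 10. Without sgRNA3 replicate 1 or 2, 4 and 3 were higher with sgRNA1. With sgRNA3, leaving out sgRNA3 replicate 1 or 2, or LACZ replicate 1 or 2, gave 3, 2, 2 and 2 higher in place of 17. With a library left out, the medians stayed at 0.17 to 0.21 with sgRNA1 and 0.28 to 0.33 with sgRNA3. Under median-of-ratios scaling they were 0.27 with sgRNA1 and 0.33 with sgRNA3. PCNA, the sliding clamp of replication and the gene with the smallest p of this list, was at 450.60 and 458.69 TPM with sgRNA1, 478.57 and 484.41 with sgRNA3, and 297.68 and 287.84 in LACZ. Of the 6162 genes whose mean was at least that of TTK, 11.4% passed in either direction with sgRNA1 and 16.6% with sgRNA3. Some replication genes, CCNE2 and ORC1 among them, lay below that level. The replication list was chosen with earlier results of these data known, and the difference between its share and that of the mitosis genes was not tested.

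**Figure D4:**
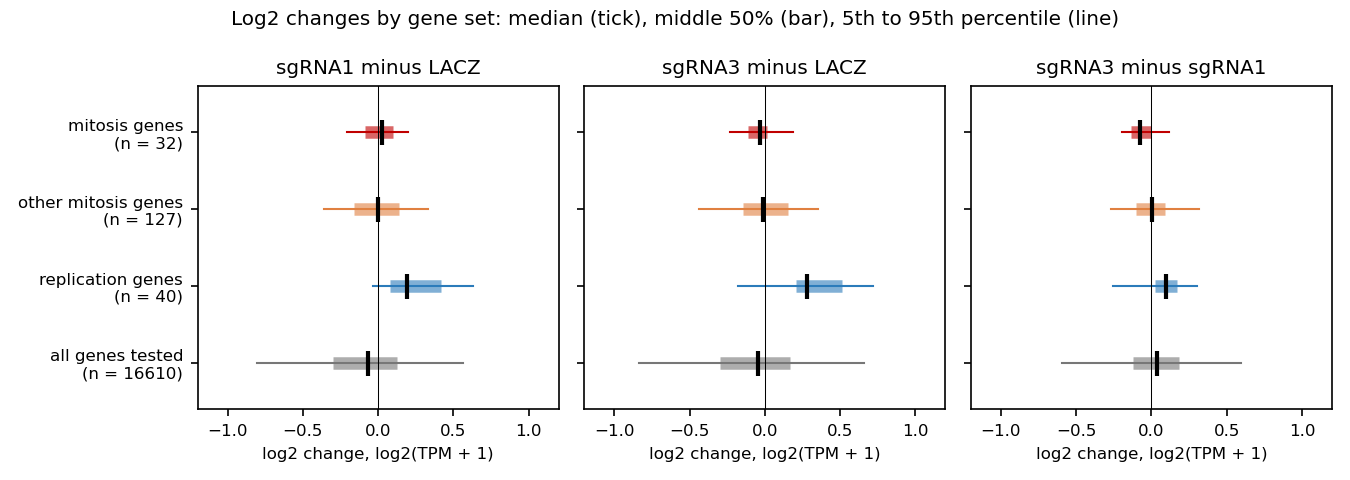
Log2 changes on the log2(TPM + 1) scale for 32 mitosis genes, 127 other mitosis genes, 40 replication genes and all 16610 genes tested, in the 3 comparisons; ticks are medians, bars the middle 50% and lines the 5th to 95th percentile. The mitosis genes form the narrowest band, with medians of 0.03, -0.03 and -0.07, while replication genes have medians of 0.19, 0.28 and 0.10.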

How the data were processed

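RNA-seq of 6 CFPAC-1 libraries was analysed from the table the authors deposited, which gives TPM per gene. Per the submitters' processing notes, HISAT2 2.1.0, RSEM 1.3.1 and DESeq2 1.24.0 were used on GRCh38, without stated roles; the sources used here do not name the annotation release or strandedness. Titles S1 and S3 were paired by guide number with columns H1 and H3. TPM keeps no depth, so no counting interval is given.

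Genes with at least 1 TPM in at least 2 libraries (16610) were analysed as log2(TPM + 1) in a limma 3.58.1 fit of 3 groups (R 4.3.3, package data.table, version 1.17.8; intensity trend, 3 residual and 2.34 prior degrees of freedom), tested on simulated data first. On this scale the change of a weakly expressed gene is understated. P-values are two-sided, Benjamini-Hochberg adjusted over all genes tested, with a threshold of 0.05. No count model was used, since TPM values are not counts. Gene coordinates are from GENCODE 29 (GRCh38).

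The mitosis genes and the lists were chosen with earlier results of these data known, so no list was tested as a set. Library values are given for genes that passed and, per role group, for the gene with the highest mean and that with the smallest p; the other members are given so that all 32 are accounted for, and CDK1, TTK, CENPA, TOP2A, BUB1, CDC20, NUSAP1 in LACZ, PCNA, KRT8 and EPCAM were given by library or range after their values were seen. Up to 4 genes per further list were eligible by smallest p. The fit was repeated with pseudocounts of 0.1 and 5, without the filter or at 5 TPM, with other scalings, without mitochondrial transcripts, no trend, only the groups compared, a replicate block, the mean of both guides, an adjusted p of 0.1, and leaving out each library.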

Additional observations from a re-analysis of the deposited data

How the results depend on the processing

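Higher with sgRNA1, 1 mitosis gene passed, against 2 under median-of-ratios scaling (BUB3 besides UBE2C) and 0 with no filter, quantile normalization, no trend, a replicate block or only the groups compared, and 0 to 0 with each library left out. Higher with sgRNA3, 0 passed, against 1 under median-of-ratios scaling (CCNA2, limma adjusted p = 0.0499). Lower with sgRNA3, 0 passed, against 2 at an adjusted p of 0.1 (TPX2 and PTTG1). The median log2 change with sgRNA1 was 0.0266, against 0.1094 under median-of-ratios scaling and 0.0551 under quantile normalization, and 0.0047 to 0.0278 with a library left out. With sgRNA3 it was -0.0312, against 0.0176 under median-of-ratios scaling, a change of sign, and -0.0445 under quantile normalization. It was -0.0520 to -0.0312 with a library left out. For sgRNA3 against sgRNA1 it was -0.0734, against -0.1071 and -0.1139 under these scalings, and -0.0746 to -0.0285 with a library left out. The cause of these shifts was not tested. Over 512 refitted changes of the mitosis genes per comparison, 20 changed sign with sgRNA1, 29 with sgRNA3 and 17 between the guides, and all lay between -0.43 and 0.47.

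Counts for the other lists were refitted as alternatives added after seeing the data. Of the 127 other mitosis genes, 3 rose and 1 fell with sgRNA1, while 4 rose and 3 fell with sgRNA3. With sgRNA1 these became 12 and 1 under median-of-ratios scaling, 8 and 1 under quantile normalization, 3 and 2 at the 5 TPM filter, 1 and 0 with no filter, and 0 and 0 with no trend, the replicate block or only the groups compared. With sgRNA3 they became 14 and 3 under median-of-ratios scaling, 6 and 7 at the 5 TPM filter, 2 and 1 with no filter, 1 and 1 with no trend, 1 and 0 with the block, and 2 and 0 with only the groups compared. The 40 replication genes gave 10 rises with sgRNA1 and 17 with sgRNA3, against 16 and 21 under median-of-ratios scaling, 15 and 18 under quantile normalization, 14 and 19 at the 5 TPM filter, 6 and 12 with no filter, 5 and 11 with the block, 3 and 13 with only the groups compared, and 1 and 7 with no trend. Differences between replicates 1 and 2 correlated at -0.031, -0.018 and 0.006 across genes between groups. A correlation over all genes can miss a pairing that acts on few genes, so it does not decide whether replicate numbers pair the libraries. A group left with 1 library was assumed to vary like the others. With 2 libraries a group and no depth in TPM, small differences may go undetected.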
